A study of Mus musculus with 19 samples.

Results

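The 56 genes described here drive and execute the cell division cycle: cyclins, cyclin-dependent kinases (CDKs) and their regulators, the retinoblastoma (pocket) proteins and E2F factors, and the machinery that checks, attaches and separates chromosomes in mitosis. They were taken by name from the RefSeq annotation of the mouse, where all 56 were found among 21887 protein-coding genes. A gene counted as marked if the summit of a CBFA2T2 peak lay within 1 kb of either annotated end of the gene. By this rule 39 peaks of 8272 in the H3.3K27M list and 31 peaks of 6920 in the H3.3WT list belonged to these genes.

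The peaks came from chromatin immunoprecipitation sequencing (ChIP-seq) in NE-4C cells, a neural stem line of the mouse deficient in p53. In both groups H3f3a, which codes for the histone variant H3.3, had been knocked out and an HA-tagged H3.3 was stably expressed. H3.3K27M cells carried the form with methionine instead of lysine 27, known from diffuse midline glioma, and H3.3WT cells the wild-type form. Cbfa2t2 was intact in both. Each list came from 1 ChIP library set against an input, so differences between the genotypes could not be tested, and the labels do not say whether the lines are single clones. The depth behind the peaks is unknown. The series describes 19 samples; the other libraries, among them those of Cbfa2t2 knockout cells, were not analysed here.

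CBFA2T2 (MTGR1) is a corepressor of the MTG family. MTG proteins have no sequence-specific DNA contact of their own; they are brought to chromatin by transcription factors such as E proteins and recruit histone deacetylases. Many cell cycle genes are read out in waves. E2F sites serve the G1/S wave. A CHR element (cell cycle genes homology region), often beside CCAAT boxes bound by NF-Y, serves the G2/M wave through the DREAM and MYB-MuvB complexes.

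By the 1 kb rule, CBFA2T2 peaks stood at most genes of the mitotic machinery. The G1 and mitotic cyclins and their kinases were marked near or below the share of all genes. For the G1 genes this depended on the limit, since Cdk2, Ccnd2 and Ccnd3 had summits between 1 and 3 kb away in both lists. Of the 56 genes, 36 were marked in the H3.3K27M list, against 28.6% of all protein-coding genes, and 31 in the H3.3WT list, against 24.8%. Both lists marked 28 of them (all genes 22.2%), the H3.3K27M list alone marked 8 (all genes 6.39%) and the H3.3WT list alone 3 (all genes 2.6%). Together 39 of the 56 were marked in either list, where all genes reached 31.2%. Divided by role after the values were seen, the 29 genes of the mitotic machinery had 25 marked in H3.3K27M and 21 in H3.3WT. The 27 genes for cyclins, CDKs, their regulators, pocket proteins and E2F factors had 11 marked in H3.3K27M and 10 in H3.3WT. The plot of folds by gene shows every marked member, and the bars by role show the counts.

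**Figure D1:**
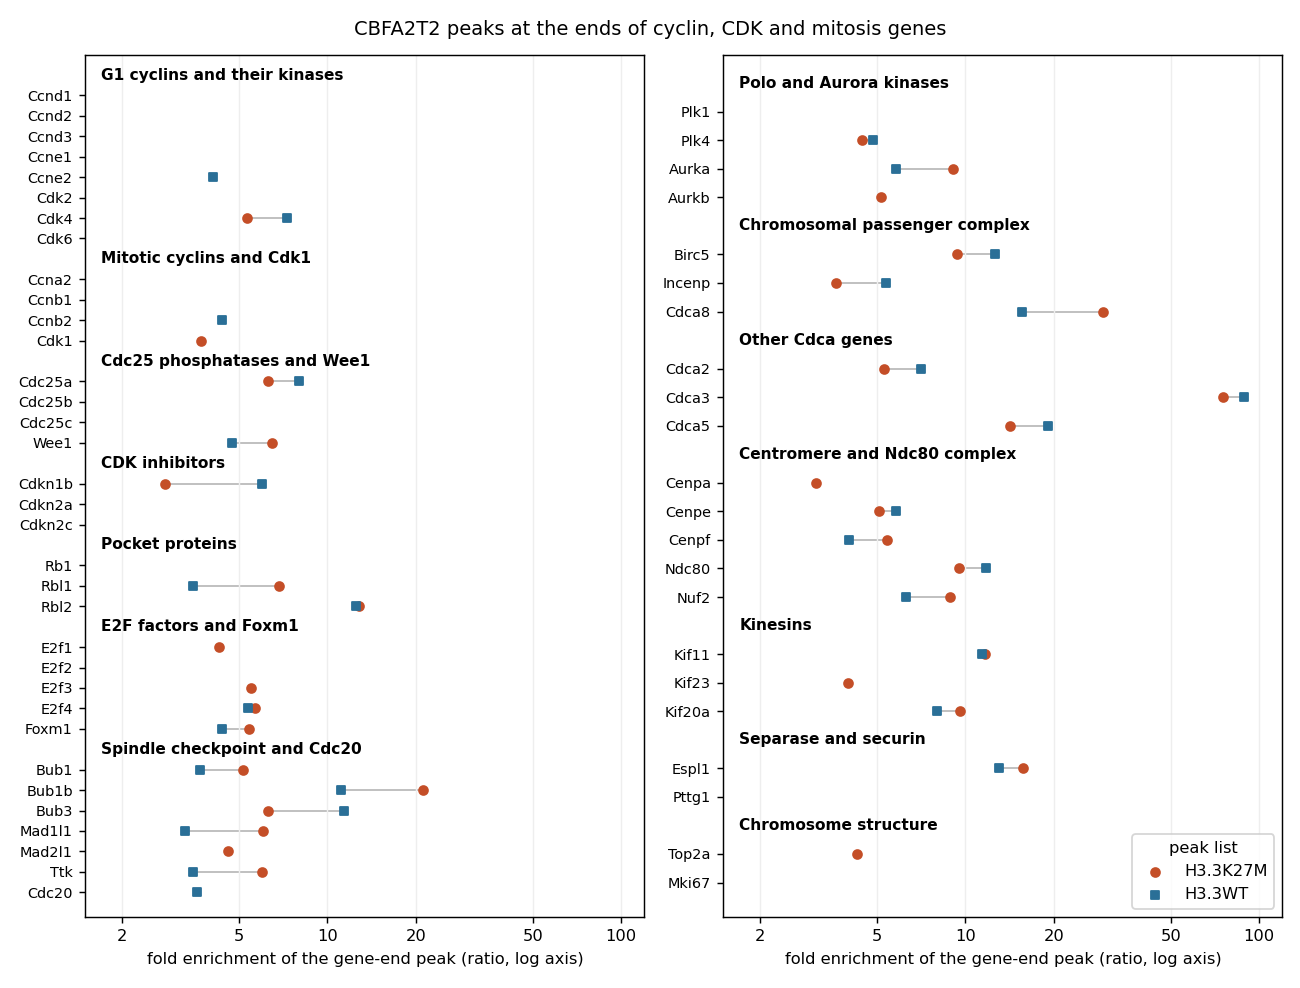
Fold enrichment of the CBFA2T2 peak at each gene (ratio of ChIP signal over background, log axis) in the H3.3K27M list (circles) and the H3.3WT list (squares), 1 library each; a gene with no symbol had no gene-end peak. Cdca3 stands far to the right of all others in both lists, and the rows of the G1 and mitotic cyclins are mostly empty.

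Promoters under strong member peaks are shown for the motif letters near their summits, first those of 3 genes that share a motif. Cdca3, which had the highest peak, is not shown, since its summit lay outside the stretch printed. Birc5, which ranked above Ndc80, is not shown either, since its H3.3WT summit lay at 31, just past the stretch. Each stretch shown runs 5′ to 3′ from 200 bases before to 30 bases after the transcription start listed by RefSeq (GRCm38.p6). Capitals mark 8 of the motifs that a search of exact letters found on either strand. The GC box and the E-boxes were searched too and are left in lower case. Of all letters searched, the promoter of Birc5 held only GC boxes and an E-box. CHR was searched as TTTGAA, with a variant form that reads TTCGAA. The CCAAT box was searched by the letters of its name. E2F was searched as TTTGGCGC, with a variant form that reads TTTCGCGC. The ETS factors were given the letters CCGGAAG, the factor NRF1 was given GCGCATGC, the CRE element was given TGACGTCA, and the factor YY1 was given AAGATGGCG. A last motif, ACTACA followed by 3 bases of any kind and then by CCCA, resembles the recognition sequence of the zinc finger factor ZNF143. This last motif was added after the sequences had been read. Bub1b, Espl1 and Rbl2 carry it beside their summits.
Bub1b, chr2:118598011-118598240, plus strand: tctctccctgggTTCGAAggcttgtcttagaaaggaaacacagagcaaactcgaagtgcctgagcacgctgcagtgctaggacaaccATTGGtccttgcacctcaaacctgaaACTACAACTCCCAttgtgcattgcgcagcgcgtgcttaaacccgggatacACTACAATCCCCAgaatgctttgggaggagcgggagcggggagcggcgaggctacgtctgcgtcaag
Espl1, chr15:102296093-102296322, plus strand: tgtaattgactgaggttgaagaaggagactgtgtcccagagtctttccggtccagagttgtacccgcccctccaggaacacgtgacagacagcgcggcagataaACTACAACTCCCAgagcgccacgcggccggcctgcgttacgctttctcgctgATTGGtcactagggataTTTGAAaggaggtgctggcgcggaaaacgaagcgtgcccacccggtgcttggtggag
Rbl2, chr8:91069857-91070086, plus strand: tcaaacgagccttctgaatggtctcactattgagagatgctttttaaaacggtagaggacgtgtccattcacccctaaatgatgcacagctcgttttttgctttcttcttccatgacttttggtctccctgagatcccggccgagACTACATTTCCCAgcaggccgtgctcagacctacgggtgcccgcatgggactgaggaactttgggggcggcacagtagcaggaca

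In Bub1b, a kinase-like protein of the spindle checkpoint, 2 copies of the ZNF143-type motif began at −87 and −37 (bases from the start, negative upstream), and the nearer one was centred 7.5 bp from the H3.3K27M summit and 3.5 bp from the H3.3WT summit. Its other capitals are a CHR and a CCAAT box farther upstream. In Rbl2, which codes for the pocket protein p130, the motif was centred 9.5 bp from the H3.3K27M summit and 4.5 bp from the H3.3WT summit. In Espl1, the gene for separase, the protease that opens cohesin, the distances were 28.5 bp in H3.3K27M and 15.5 bp in H3.3WT, and a CCAAT box and a CHR followed downstream. Bub3, another checkpoint gene, was the only further member with the motif, at 51.5 bp in H3.3K27M and 74.5 bp in H3.3WT. All 4 had peaks in both lists. Bub1b, Espl1 and Rbl2 were printed for high folds in both, so for them this was set by the choice.

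The next 3 strong promoters lack the ZNF143-type letters. They are shown to set promoters with CHR or CCAAT letters beside one with other motifs.
Cdca8, chr4:124936888-124937117, minus strand: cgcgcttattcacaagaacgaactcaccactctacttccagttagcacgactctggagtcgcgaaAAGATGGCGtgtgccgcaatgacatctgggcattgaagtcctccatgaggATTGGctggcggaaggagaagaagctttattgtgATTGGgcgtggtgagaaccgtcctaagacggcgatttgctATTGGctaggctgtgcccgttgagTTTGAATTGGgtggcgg
Cdca5, chr19:6084897-6085126, plus strand: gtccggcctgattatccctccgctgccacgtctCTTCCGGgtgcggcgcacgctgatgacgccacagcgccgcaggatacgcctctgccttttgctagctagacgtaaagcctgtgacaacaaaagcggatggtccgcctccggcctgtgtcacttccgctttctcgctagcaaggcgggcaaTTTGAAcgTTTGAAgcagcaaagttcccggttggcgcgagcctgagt
Ndc80, chr17:71526828-71527057, minus strand: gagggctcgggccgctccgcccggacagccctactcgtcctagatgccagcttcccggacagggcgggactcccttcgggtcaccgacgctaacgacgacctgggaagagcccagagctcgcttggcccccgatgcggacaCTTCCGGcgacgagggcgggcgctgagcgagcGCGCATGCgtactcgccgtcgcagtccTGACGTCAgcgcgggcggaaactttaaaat

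Cdca8 codes for borealin of the chromosomal passenger complex and Cdca5 for sororin, which protects cohesin. Cdca8 held 4 CCAAT boxes, the last of them overlapping its CHR, and a YY1 motif at −135. Cdca5 held 2 CHR motifs at −17 and −9, and an ETS motif at −167. Ndc80, the kinetochore subunit that grips microtubules, held an ETS, an NRF1 and a CRE motif in this stretch and no CCAAT box. Its CHR begins at the last printed base, at 29, and is not in capitals.

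Top2a and Cdk1 follow as members marked in the H3.3K27M list alone whose summit fell inside the same window.
Top2a, chr11:99024160-99024389, minus strand: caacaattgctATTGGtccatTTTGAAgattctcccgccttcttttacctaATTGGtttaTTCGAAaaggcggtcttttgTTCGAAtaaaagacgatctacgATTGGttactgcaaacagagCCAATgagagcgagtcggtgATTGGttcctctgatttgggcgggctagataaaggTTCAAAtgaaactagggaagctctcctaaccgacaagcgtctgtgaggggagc
Cdk1, chr10:69352883-69353112, minus strand: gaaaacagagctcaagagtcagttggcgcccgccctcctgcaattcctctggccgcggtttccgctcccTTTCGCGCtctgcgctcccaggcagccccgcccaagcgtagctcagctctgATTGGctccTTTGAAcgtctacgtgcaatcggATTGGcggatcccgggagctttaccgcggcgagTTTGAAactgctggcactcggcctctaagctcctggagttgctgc

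The promoter of Top2a, which codes for the topoisomerase that untangles chromosomes, held 4 CHR motifs and 5 CCAAT boxes in this stretch. That of Cdk1, the kinase that drives entry into mitosis, held 2 CHR motifs, 2 CCAAT boxes and an E2F motif. Their summits lay at −46 in Top2a and at 21 in Cdk1.

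Of the genes for G1 cyclins and their kinases, 1 of 8 was marked in H3.3K27M and 2 of 8 in H3.3WT, where all genes had 28.6% and 24.8%. Cdk4, the partner kinase of the D-type cyclins, was marked in both lists, at 5.32 fold in H3.3K27M, against 7.26 fold in H3.3WT. Ccne2, a cyclin that activates Cdk2 at the G1/S transition, had a peak of 4.09 fold (−log10 q of 3.73) in H3.3WT alone. Here and below, fold is the deposited ratio of the signal at a summit to the background around it, and q the caller's corrected p-value; both are the authors' values within a list and carry no replicate error. Ccnd1, Ccnd2, Ccnd3, Ccne1, Cdk2 and Cdk6 had no gene-end peak in either list.

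Several of these genes had peaks just beyond the 1 kb limit. The nearest summits to Cdk2 lay 1497 bp outside it in H3.3K27M (7.52 fold) and 1457 bp outside it in H3.3WT (15.9 fold), at the ends of Rab5b and Pmel. Ccnd2 had a summit 2856 bp outside at 3.91 fold in H3.3K27M and 2872 bp outside at 6.57 fold in H3.3WT. Those next to Ccnd3 lay at the end of Taf8, 2853 bp away at 10.1 fold in H3.3K27M and 2890 bp away at 11.1 fold in H3.3WT. Inside Ccnd3, the H3.3K27M list also had a peak of 4.83 fold 151 bp downstream of its other listed start, which the gene-end rule does not count. The H3.3K27M list had a further peak of 3.99 fold inside Cdk6, 1862 bp from a gene end and at −1027 bp from the listed start.

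Mitotic cyclins and Cdk1 were marked in a single list or not at all. Ccnb2, a B-type cyclin that activates Cdk1, had 4.39 fold (−log10 q of 4.23) in H3.3WT alone, and Cdk1 itself 3.71 fold (−log10 q of 3.84) in H3.3K27M alone. Ccna2, the cyclin of S and G2 phase, missed the limit in H3.3K27M with a summit 1045 bp inside the gene at 4.41 fold. The only peak near Ccnb1, at 6.85 fold in H3.3WT, lay 3003 bp outside it at the end of Cenph.

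Among the enzymes that set CDK phosphorylation, Cdc25a, the phosphatase of the G1/S transition, was marked at 6.29 fold in H3.3K27M, against 8.02 fold in H3.3WT. Wee1, the kinase that restrains Cdk1, was marked at 6.49 fold in H3.3K27M, against 4.74 in H3.3WT. Cdc25b and Cdc25c had no peak. Of the CDK inhibitors, Cdkn1b (p27) had 2.80 fold in H3.3K27M, the lowest member peak of that list, and 5.98 fold in H3.3WT. Its summits were 249 bp apart, the widest gap among overlapping member peaks. Cdkn2a and Cdkn2c, of the INK4 family, were unmarked.

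The pocket proteins hold E2F factors in check and, as p107 and p130, form the DREAM complex. Rbl2 (p130) was among the strongest members, with 12.8 fold in H3.3K27M, against 12.5 fold in H3.3WT. Rbl1 (p107) had 6.85 fold in H3.3K27M, against 3.49 fold in H3.3WT. Its H3.3WT peak, at −log10 q of 2.90, was weak, and a second peak inside the gene reached 8.0 fold in H3.3K27M, against 9.31 fold in H3.3WT. Rb1 had no gene-end peak, and the summits nearest to it lay 3994 bp outside at 7.96 fold in H3.3K27M and 3999 bp outside at 6.99 fold in H3.3WT.

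Of the E2F factors and Foxm1, 4 of 5 were marked in H3.3K27M and 2 of 5 in H3.3WT. Foxm1, the factor that activates G2/M genes, had 5.41 fold in H3.3K27M, against 4.38 fold in H3.3WT, at an end it shares with Rhno1. E2f4, the repressor E2F of DREAM, had peaks at both ends in H3.3K27M, 5.69 fold at the end shared with Exoc3l and 3.38 fold at the end shared with Elmo3. H3.3WT had a peak at the Elmo3 end alone, at 5.37 fold. E2f1, an activator of the G1/S wave, was marked in H3.3K27M alone, at 4.28 fold (−log10 q of 9.48). E2f3 was likewise marked in H3.3K27M alone, at 5.51 fold, but the H3.3WT list had a peak of 3.83 fold inside the gene, at −55 bp from its second listed start. E2f2 was unmarked.

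The spindle checkpoint delays anaphase until every kinetochore is attached, by holding Cdc20, the activator of the anaphase promoting complex. All 7 of its genes were marked in at least 1 list, 6 in H3.3K27M and 6 in H3.3WT. Bub1b led them with 21.1 fold (−log10 q of 95.9) in H3.3K27M, against 11.1 fold (49.9) in H3.3WT. A second, weak peak stood at the far end of Bub1b in H3.3K27M, at 4.08 fold (−log10 q of 2.28). Bub3 had 6.30 fold in H3.3K27M, against 11.4 fold in H3.3WT. Ttk, the kinase that starts checkpoint signalling, had 5.97 fold in H3.3K27M, against 3.48 in H3.3WT, and the checkpoint kinase gene Bub1 had 5.15 fold in H3.3K27M, against 3.69 in H3.3WT. Both H3.3WT peaks were weak, at −log10 q of 3.10 for Ttk and 3.71 for Bub1.

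The remaining checkpoint genes differed between the lists in where or whether they were called. Mad1l1 had peaks at both ends in H3.3K27M, 6.03 fold at the far end of the gene and 4.63 fold at the start it shares with Nudt1. Its H3.3WT peak of 3.27 fold, at −log10 q of 2.10 the least certain member peak of that list, lay at the start. Mad2l1, the checkpoint effector, was marked in H3.3K27M alone at 4.60 fold (−log10 q of 5.24). Cdc20 was marked in H3.3WT alone at 3.58 fold (−log10 q of 5.09).

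Aurora A, coded by Aurka, builds the spindle poles. The end it shares with Cstf1 carried 9.07 fold in H3.3K27M, against 5.80 fold in H3.3WT. Plk4, the kinase of centriole duplication, had 4.44 fold in H3.3K27M, against 4.85 in H3.3WT. Aurkb, the kinase of the passenger complex, was marked in H3.3K27M alone at 5.15 fold (−log10 q of 8.18). Plk1 had no peak within 5 kb or inside the gene in either list.

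The 3 other members of the chromosomal passenger complex, which corrects faulty attachments, were marked in both lists. Cdca8 had 29.4 fold (rank 106 of 8272) in H3.3K27M, against 15.6 fold (rank 581 of 6920) in H3.3WT, with summits 8 bp apart. Birc5 (survivin) had 9.38 fold in H3.3K27M, against 12.6 in H3.3WT. Incenp, the scaffold, had 3.63 fold in H3.3K27M, against 5.37 in H3.3WT. The Cdca8 peak also lies within 1 kb of an end of the uncharacterised 9930104L06Rik.

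All 3 other Cdca genes were marked in both lists. Cdca3, a mitotic entry factor, carried the highest member peak at 75.1 fold in H3.3K27M, against 88.9 fold in H3.3WT. That peak (chromosome 6, 124828530 to 124830623 in H3.3K27M) is shared with the end of Usp5, and its summits lay at −1105 bp in H3.3K27M and −1115 bp in H3.3WT from the listed start of Cdca3, outside the promoter window searched here. Cdca5 had 14.2 fold in H3.3K27M, against 19.1 in H3.3WT at an end shared with Zfpl1. Cdca2, which brings a phosphatase to chromosomes in anaphase, had 5.30 fold in H3.3K27M, against 7.08 in H3.3WT at an end shared with Kctd9.

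The centromere and Ndc80 genes were all marked in H3.3K27M and 4 of 5 in H3.3WT. Ndc80 had 9.49 fold in H3.3K27M, against 11.8 fold in H3.3WT, at an end shared with Spdya. Its partner Nuf2 had 8.86 fold in H3.3K27M, against 6.30 in H3.3WT. Cenpe, a kinetochore motor, had 5.07 fold in H3.3K27M, against 5.79 in H3.3WT with summits 1 bp apart, and Cenpf had 5.41 fold in H3.3K27M, against 4.01 in H3.3WT. Cenpa, the histone H3 variant of centromeres, was marked in H3.3K27M alone at 3.09 fold; its −log10 q of 2.06 was the lowest of all member peaks.

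Among the kinesins, Kif11 (Eg5), which pushes spindle poles apart, was close in both lists at 11.6 fold in H3.3K27M, against 11.4 fold in H3.3WT. Kif20a, a motor of cytokinesis, had 9.55 fold in H3.3K27M, against 8.0 in H3.3WT at an end shared with Brd8. Kif23, of the central spindle, was marked in H3.3K27M alone at 3.98 fold. Espl1 had 15.7 fold in H3.3K27M, against 13.0 fold in H3.3WT, while Pttg1, the gene for its inhibitor securin, had no peak within 5 kb. Top2a was marked in H3.3K27M alone at 4.27 fold (−log10 q of 6.88). Mki67, the gene of the proliferation antigen Ki-67, had no peak within 5 kb or inside it.

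**Figure D2:**
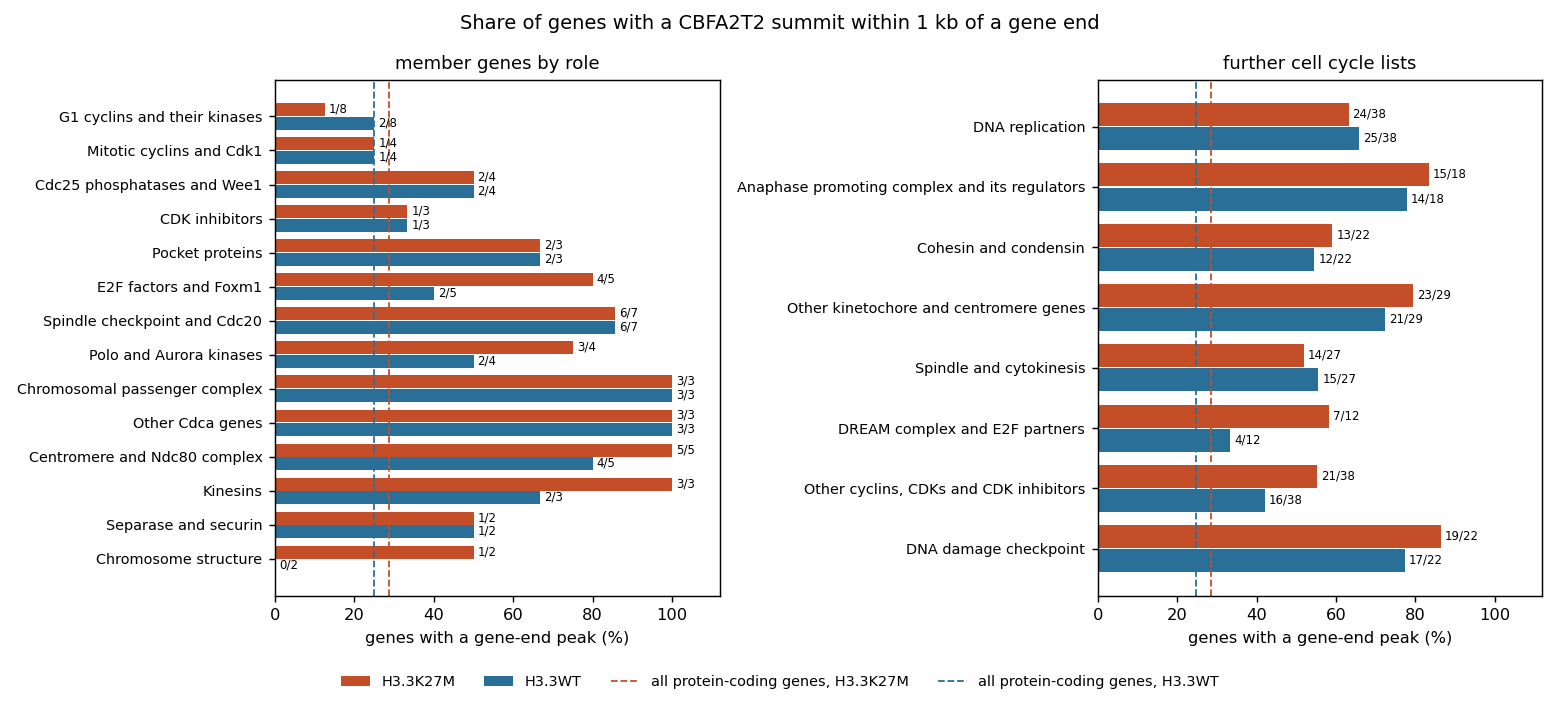
Share of genes (%) with a CBFA2T2 summit within 1 kb of a gene end, for member genes by role (left) and 8 further cell cycle lists (right), in the H3.3K27M list (upper bar) and the H3.3WT list (lower bar); dashed lines give all protein-coding genes (28.6% and 24.8%), and the labels give counts. G1 cyclins and mitotic cyclins stand near or below the lines, and the checkpoint, passenger, Cdca and centromere genes far above them.

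The members marked in a single list were weaker at the median than the members in both. E2f1 was near the middle of all H3.3K27M peaks by −log10 q (percentile 50.1), and E2f3 by fold (percentile 48.0). The 8 in H3.3K27M alone (E2f1, Aurkb, Top2a, E2f3, Mad2l1, Kif23, Cdk1 and Cenpa) had a median of 4.28 fold and −log10 q of 5.52, against 6.39 fold and 14.4 for the 28 members in both. All 1399 genes marked in H3.3K27M alone had medians of 4.44 fold and 5.24. The 3 in H3.3WT alone had −log10 q between 3.73 and 5.09. No member of a single list was among the 25% of peaks with the highest fold in its list. This was rare for single-list genes in general, at 3.65% of all genes in H3.3K27M alone and 1.75% in H3.3WT alone. The lists hold no peak below −log10 q of 1.31 in H3.3K27M and 1.33 in H3.3WT, so a missing peak does not show that a site was empty.

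Over all marked members, peak height was near that of other marked genes. The median member fold was 5.83 in H3.3K27M, against 6.29 for all 6256 marked genes, and 5.98 in H3.3WT, against 6.91 for all 5427. Of the marked members, 12 of 36 (33.3%) in H3.3K27M and 10 of 31 (32.3%) in H3.3WT were among the 25% of peaks with the highest fold, close to the 32.7% of marked genes in both lists. Of the 10 highest member folds in each list, 9 were the same genes; Kif20a completed the H3.3K27M set and Bub3 the H3.3WT set.

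Where both lists had a peak, it was mostly the same site. All 28 members had gene-end peaks that overlapped by at least 1 bp between the lists. The most certain peaks of a gene overlapped for 26 of them (92.9%), against 98.7% of all 4857 genes in both lists. Those of E2f4 and Mad1l1 lay at different ends. These overlapping most certain peaks had summits a median of 27 bp apart, against 40 bp over all genes in both lists. The fold of the most certain peak was higher in the H3.3K27M list for 16 of the 28 members (57.1%) and for 46.6% of all 4857 such genes. Since depth is unknown, this orders the values and shows no change. E2f4 and Mad1l1 enter this count with peaks at different ends. At the Elmo3 end, E2f4 had 3.38 fold in H3.3K27M, against 5.37 fold in H3.3WT. At its start, Mad1l1 had 4.63 fold in H3.3K27M, against 3.27 fold in H3.3WT. Across the 28 genes, with the same most certain peaks, the folds of the lists had a Spearman correlation of 0.70, close to the 0.70 across all 4857 genes. This describes 2 libraries that share the antibody and the cell line.

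Member summits lay mostly at transcription starts. RefSeq start positions were available for 43 members, of which 29 were marked in H3.3K27M and 24 in H3.3WT. The summit was within 200 bp of a listed start in 22 of 29 members in H3.3K27M (all marked genes 72.3%) and in 20 of 24 in H3.3WT (all marked genes 74.6%). It lay upstream in 20 of 29 in H3.3K27M (2894 of 5174 marked genes in all) and 19 of 24 in H3.3WT (2701 of 4484 in all). The exceptions beyond 1 kb were Cdca3 in both lists and the far end of Mad1l1 in H3.3K27M. A second protein-coding gene had an end within 1 kb of the same summit for 9 of 36 members in H3.3K27M (25%, all marked genes 34.7%) and 10 of 31 in H3.3WT (32.3%, all marked genes 36.8%).

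**Figure D3:**
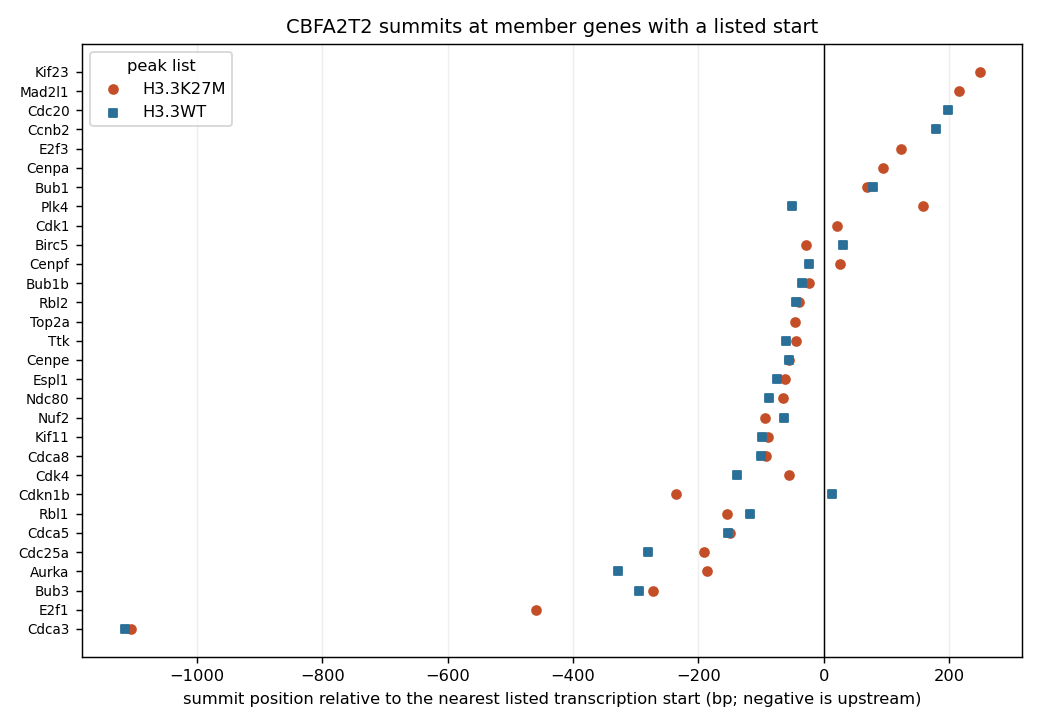
Position of the CBFA2T2 summit relative to the nearest listed transcription start (bp, negative is upstream) for 30 marked members with a listed start, in the H3.3K27M list (circles) and the H3.3WT list (squares); Mad1l1 is beyond the axis. Most points lie between the start and 200 bp upstream, and Cdca3 stands alone at −1105 bp in H3.3K27M and −1115 bp in H3.3WT.

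Promoters of marked members were rich in CHR and CCAAT letters. In the window from 250 bases before to 50 after the start, CHR was found in 20 of 31 promoters of marked members and 3 of 12 of unmarked members. The unmarked members with CHR were Cdc25b, Plk1 and Mki67. Those without it were Ccnd3, Ccne1, Cdk2, Cdk6, Cdkn2a, Cdkn2c, E2f2, Ccnb1 and Pttg1, mostly genes of cyclin and CDK control. Role and mark therefore cannot be told apart in this comparison of members. Over all protein-coding genes it was found in 14.5% of 5628 marked and 19.9% of 11864 unmarked promoters. With the 50 bases after the start left out, CHR was found in 11 of 31 marked members and 12.8% of all marked promoters. CCAAT was found in 20 of 31 marked and 6 of 12 unmarked members, against 40.5% of all marked and 38.6% of all unmarked promoters. Over all genes CHR letters were no more frequent at marked than at unmarked promoters. CHR letters are known from G2/M genes.

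Over all genes the median share of G and C bases was 61.3% in marked promoters and 53% in unmarked ones. Among members it was 58% in marked and 65.8% in unmarked promoters. How the motif shares depend on base content was not tested. Letters that were more frequent at marked promoters in general were spread as follows among the members. The GC box (GGGCGG) was found in 23 of 31 marked and 9 of 12 unmarked members, against 66.5% and 36.8% of all marked and unmarked promoters. ETS was found in 7 of 31 and 1 of 12, against 25% and 5.70%. The E2F letters occurred in 3 of 31 and 1 of 12, against 2.17% and 0.573%. NRF1 and CRE were each found in 2 of 31 and YY1 in 1 of 31, with none in the 12 unmarked members; all marked promoters had 6.68%, 4.55% and 4.55%, and all unmarked ones 2.15%, 1.27% and 0.666%.

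E-boxes are the sites of E proteins and of MYC and USF factors. CAGCTG was found in 6 of 31 marked and 2 of 12 unmarked members (all genes 12.2% and 16.4%). CAGGTG was found in none of the 43 (all genes 14.5% and 21.5%). CACGTG was found in 3 of 31 and 1 of 12 (all genes 11.9% and 6.03%). A match describes letters in a window and does not show that a factor was bound.

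**Figure D4:**
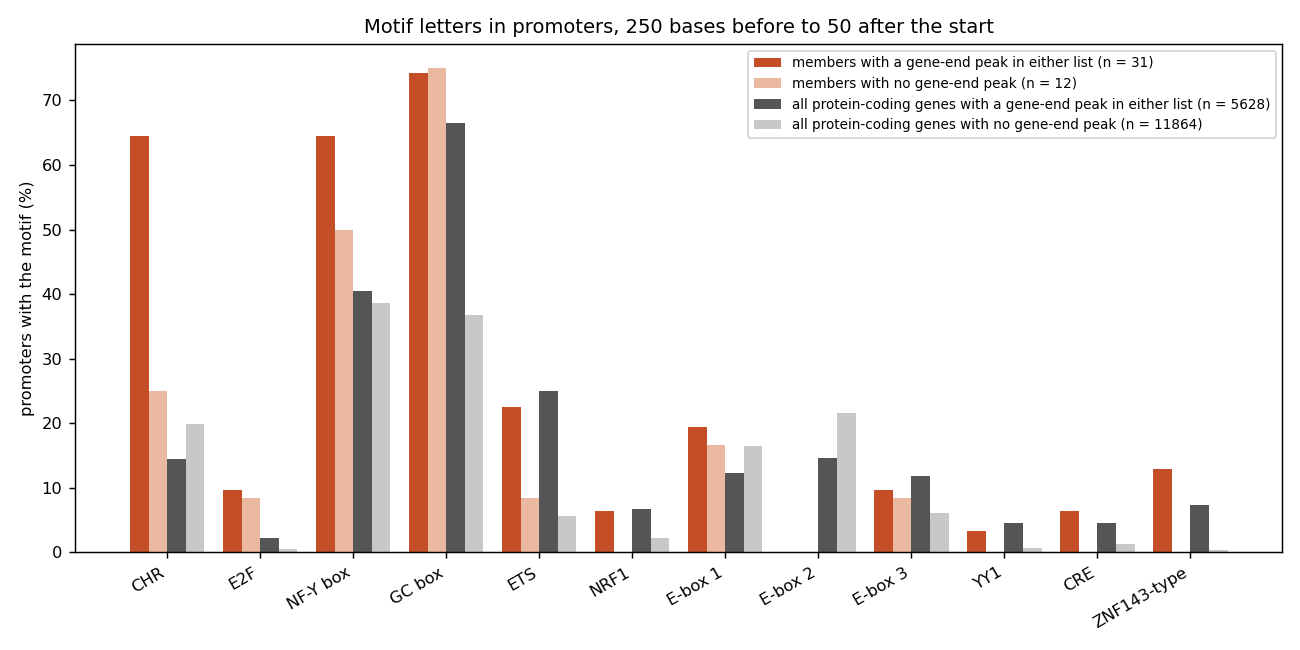
Share of promoters (%) that hold each motif, for marked and unmarked members and for all marked and unmarked protein-coding genes; E-box 1 has the letters CAGCTG, the bars named E-box 2 have CAGGTG, those named E-box 3 have CACGTG, and the NF-Y box has CCAAT. CHR stands out for marked members, at 20 of 31 promoters, while all marked genes reach 14.5%. Marked and unmarked members also differ in role.

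The ZNF143-type letters of Bub1b, Espl1, Rbl2 and Bub3 were counted in all promoters after they had been noticed in these genes. They were found in 4 of 31 marked and none of 12 unmarked members, and in 7.32% of all marked and 0.337% of all unmarked promoters. The share followed peak height. Among all genes of the H3.3K27M list divided by fold into 4 bins of near equal size, it was 1.39% in the lowest bin, then 2.63% and 8.20%, and 19.2% in the highest. In H3.3WT the bins had 1.60%, 3.84%, 9.65% and 19.7%. The nearest copy was a median of 35.5 bp from the summit in H3.3K27M and 39.5 bp in H3.3WT; for CRE it was 55 bp in both lists, for ETS 59.5 bp in H3.3K27M and 51.5 bp in H3.3WT, for YY1 69.5 bp in H3.3K27M and 68.5 bp in H3.3WT, and for CHR 159 bp in H3.3K27M and 152 bp in H3.3WT. The shares of ETS, YY1, CRE and CHR were higher in the highest bin than in the lowest, but those of ETS and CRE did not rise at every step. ETS was most frequent in the third bin, at 30.3% in H3.3K27M and 35.0% in H3.3WT. CRE was most frequent in the third bin in H3.3WT, at 5.99%. In H3.3K27M ETS had 17.6% in the lowest and 30.1% in the highest, YY1 2.93% and 6.49%, CRE 2.93% and 6.03%, and CHR 13.0% and 16.7%. In H3.3WT ETS had 19.1% and 29.8%, YY1 3.29% and 6.25%, CRE 3.20% and 5.27%, and CHR 12.9% and 15.8%. The shares of CCAAT, NRF1, the GC box, CAGCTG and CAGGTG were lower in the highest bin in both lists. For E2F and CACGTG the direction differed between the lists. The promoters of Bub1b, Espl1 and Rbl2 had been chosen for printing by their folds. That their peaks were among the 25% with the highest fold in both lists was therefore largely set by the choice. The peak of Bub3, which was not printed, was among them in H3.3WT alone.

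**Figure D5:**
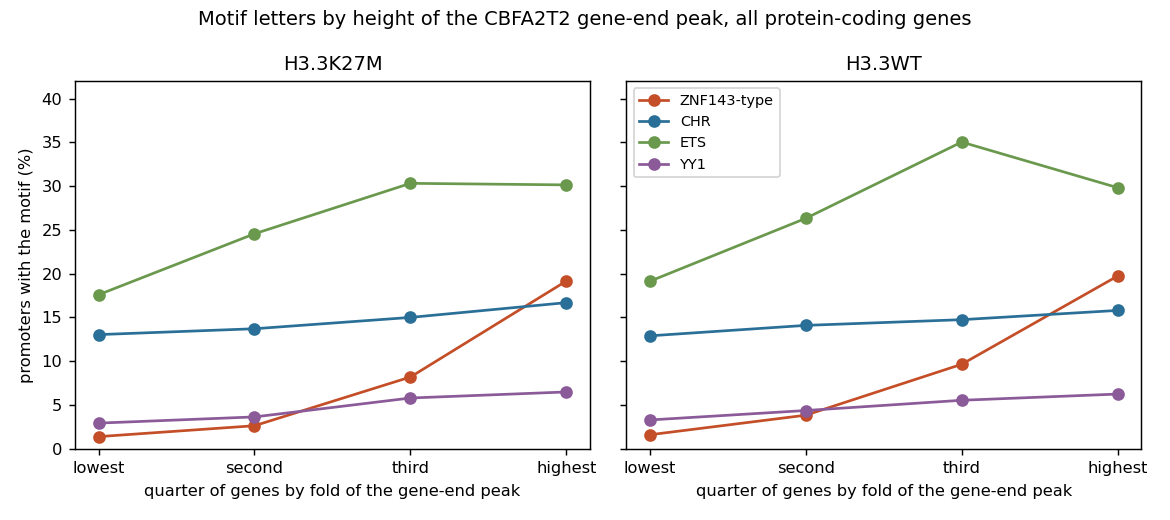
Share of promoters (%) with 4 motifs over 4 bins of all marked protein-coding genes by fold of the gene-end peak, in the H3.3K27M list (left) and the H3.3WT list (right). The ZNF143-type share is 19.2% in H3.3K27M and 19.7% in H3.3WT in the highest bin. CHR rises less, from 13.0% to 16.7% in H3.3K27M and from 12.9% to 15.8% in H3.3WT.

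Further cell cycle lists, taken by name, were marked about as often as the members. Together 136 of 206 genes were marked in H3.3K27M and 124 in H3.3WT, beside 28.6% and 24.8% of all genes. The DNA damage checkpoint had 19 of 22 marked in H3.3K27M and 17 of 22 in H3.3WT. Brca1, which acts in homologous recombination, had 35.9 fold in H3.3K27M, against 61.4 in H3.3WT at an end shared with Nbr1. Rad17, of the clamp loader, had 23.8 fold in H3.3K27M, against 35.8 in H3.3WT at an end shared with Ak6 and Taf9. The kinase gene Chek2 had 9.38 fold in H3.3K27M, against 6.76 in H3.3WT. The anaphase promoting complex had 15 of 18 marked in H3.3K27M and 14 of 18 in H3.3WT, with Cdc26 at 20.7 fold in H3.3K27M, against 19.3 in H3.3WT, Anapc11 at 18.1 fold in H3.3K27M, against 7.84 in H3.3WT, Anapc10 at 13.3 fold in H3.3K27M, against 8.94 in H3.3WT and Anapc13 at 11.9 fold in H3.3K27M, against 17.3 in H3.3WT. This ubiquitin ligase destroys securin and B-type cyclins. All 4 of these peaks lay at ends shared with another gene: Prpf4 for Cdc26, Alyref for Anapc11, Abce1 for Anapc10 and Cep63 for Anapc13. The Chek2 peak is shared with Hscb.

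Other kinetochore and centromere genes had 23 of 29 marked in H3.3K27M and 21 of 29 in H3.3WT. Cenpt, which links centromeric chromatin to Ndc80, had 25.8 fold in H3.3K27M, against 29.4 in H3.3WT at an end shared with Thap11. Cenpl had 20.3 fold in H3.3K27M, against 13.7 in H3.3WT, Cenpu 19.8 fold in H3.3K27M, against 11.5 in H3.3WT, and Mis12 17.1 fold in H3.3K27M, against 14.9 in H3.3WT. DNA replication genes had 24 of 38 marked in H3.3K27M and 25 of 38 in H3.3WT, among them the flap nuclease gene Fen1 (30.5 fold in H3.3K27M, against 19.4 in H3.3WT), the helicase gene Cdc45 (25.7 fold in H3.3K27M, against 32.9 in H3.3WT), Rpa2 (12.1 fold in H3.3K27M, against 13.5 in H3.3WT) and the licensing gene Cdc6 (11.7 fold in H3.3K27M, against 7.96 in H3.3WT). Fen1 shares its end with Tmem258, Cdc45 with Ufd1, and Mis12 with Derl2.

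Spindle and cytokinesis genes had 14 of 27 marked in H3.3K27M and 15 of 27 in H3.3WT, among them Tacc3 (30.4 fold in H3.3K27M, against 17.1 in H3.3WT), the microtubule depolymerase gene Kif2c (27.2 fold in H3.3K27M, against 16.6 in H3.3WT), Numa1 (15.9 fold in H3.3K27M, against 11.4 in H3.3WT) and Kif15 (12.5 fold in H3.3K27M, against 17.3 in H3.3WT). Cohesin and condensin genes had 13 of 22 marked in H3.3K27M and 12 of 22 in H3.3WT, among them Mau2 (10.6 fold in H3.3K27M, against 18.5 in H3.3WT), Ncaph2 (14.4 fold in H3.3K27M, against 8.94 in H3.3WT), Smc2 (10.7 fold in H3.3K27M, against 17.3 in H3.3WT) and Smc1a (12.5 fold in H3.3K27M, against 7.88 in H3.3WT). Other cyclins, CDKs and inhibitors had 21 of 38 marked in H3.3K27M and 16 of 38 in H3.3WT. Their most certain peaks belonged to kinases and cyclins of transcription and neurons: Cdk11b (24.5 fold in H3.3K27M, against 23.3 in H3.3WT), Ccnt1 (20.1 fold in H3.3K27M, against 37.6 in H3.3WT), Cdk5 (17.0 fold in H3.3K27M, against 16.0 in H3.3WT) and Cdk9 (11.6 fold in H3.3K27M, against 25.4 in H3.3WT). The DREAM list had 7 of 12 marked in H3.3K27M and 4 of 12 in H3.3WT, among them Rbbp4 (8.45 fold in H3.3K27M, against 5.31 in H3.3WT), Lin52 (5.38 fold in H3.3K27M, against 7.41 in H3.3WT), Lin37 (5.34 fold in H3.3K27M, against 8.95 in H3.3WT) and Tfdp1 (4.44 fold in H3.3K27M, against 4.30 in H3.3WT). Shared ends were those of Tacc3 with Tmem129, Numa1 with Lrrc51, Kif15 with 1110059G10Rik, Mau2 with Sugp1, Ncaph2 with Lmf2, Smc1a with Ribc1, Cdk5 with Slc4a2, Rbbp4 with Zbtb8os and Lin52 with Aldh6a1.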

How the data were processed

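Groups follow the labelled genotype and ChIP antibody. Peaks had been called with MACS2 on mm10 after trimming with Trim Galore, per the submitters' processing notes, each list from 1 ChIP library against an input (peak names). Versions, aligner and caller settings are not given in the sources used here. The authors' fold enrichment, a ratio, and their −log10 q rank the deposited peaks; the deposited −log10 p and score columns did not enter any result. The smallest −log10 q was 1.31 in H3.3K27M and 1.33 in H3.3WT. No read counts came with the peaks, so depth is unknown and precision cannot be given.

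Gene spans and promoters came from RefSeq tables (GRCm38.p6, the assembly of mm10); 43 of 56 members had a promoter, and 206 of 207 further genes were found; Clspn had been misspelled in the list and is not in the 22 genes counted for the DNA damage checkpoint. The peak of highest −log10 q represented a gene. Motifs were searched in 1 promoter per gene, that of the outermost start. Promoters printed are those of the members with the highest summed rank of fold and of single-list members, if the summit fell inside, a condition added after seeing the data; Kif11 tied with Ndc80 for the last place. Members and lists were chosen with earlier results of these data known, and the rule for named genes took all members and up to 4 genes per further list by −log10 q in H3.3K27M; 1 of these genes is not reported here. The assignment was tested on simulated data. Python 3.11.15, pandas 2.3.3 and scipy 1.17.1 were used. Alternatives were other windows, thresholds, list lengths and promoter windows.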

Additional observations from a re-analysis of the deposited data

How the results depend on the processing

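Of the values recomputed, 60 stayed within 1.5 times the reported one and 9 did not. With peaks of at least 5 fold, 27 members were marked in H3.3K27M (all genes 19.4%), 20 in H3.3WT (all genes 19.1%) and 18 in both (all genes 15.2%). With summits within 3 kb, 41 members were marked in H3.3K27M (all genes 32.3%) and 36 in H3.3WT (all genes 28.2%). Cdk2, Ccnd2 and Ccnd3 were then marked in both lists, so the low share of G1 genes did not hold with that window. With the promoter window cut to 250 bases before the start, members with CHR numbered 12 (23 in the full window), NRF1 1 and CRE 1, since the 50 bases after the start were left out. With 100 bases before to 50 after, ETS was found in 5, CAGCTG in 2, CACGTG in 2 and YY1 in 0. Which members were in a single list depended on the threshold. With equal list lengths, Cdk1 and Cenpa were no longer marked and Plk4 was marked in H3.3WT alone. At −log10 q of at least 5, Bub1, Cenpf, Mad1l1, Rbl1 and Ttk were also in H3.3K27M alone and Cdkn1b in H3.3WT alone. Counted at listed starts, E2f3 was marked in both lists and Ccnd3 in H3.3K27M alone. Cdca3, which had the highest member peak, was then marked in neither list. The unknown depth limits every absence. No paired analysis was possible because each genotype had 1 library. No replicate could be left out.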
